A study of Mus musculus with 12 samples.

Results

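Deubiquitinase genes were taken as every gene in the deposited peak lists whose symbol belongs to the ubiquitin-specific proteases (Usp followed by a digit), the ovarian tumour proteases (Otub, Otud and Otulin), the ubiquitin C-terminal hydrolases (Uchl) or the Josephin genes (Josd), or is Cyld or Bap1. Of 14078 genes with a peak of N6-methyladenosine (m6A), 63 met this rule: 61 in the wild-type (WT) list and all 63 in the Mettl3 knockout (KO) list. They carried 239 of the 36682 WT peaks and 253 of the 41153 KO peaks. The symbols select 43 Usp genes, 11 Otu genes, 5 ubiquitin C-terminal hydrolase genes with Bap1 counted among them, 2 Josephin genes, Cyld and 1 noncoding RNA.

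The series measured m6A by antibody pull-down (IP) of fragmented polyadenylated RNA, sequenced beside the unselected input, in BV2 cells, an immortalised mouse microglial line. It compared WT cells with cells in which Mettl3, the catalytic subunit of the main m6A writer complex, was knocked out, and its text states the aim of finding regulators of the microglial response that depend on METTL3. The 12 libraries form 4 groups of 3 replicates, an IP and an input group for each genotype. All 4 groups were treated with bacterial lipopolysaccharide (LPS), so there was no untreated group and every value below is from LPS-treated cells. The sources used here give neither the LPS dose and time nor whether the KO cells were 1 clone.

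Each genotype is represented by 1 peak list with no value per library. No spread between replicates could be measured, no comparison below is a test, and a difference between the lists describes these lists only. The value of a peak is its log2 of IP over input as the authors deposited it, so that 1 is 2-fold and 2 is 4-fold enrichment. A gene's level is the log2 of its strongest peak, and a difference is KO minus WT, so that a negative difference is a lower value in the KO list. Input expression and depth per library were not analysed here, and the lists may differ in IP efficiency and in scaling. The protocol text in the labels speaks of neuroblastoma cells, whereas the labels name BV2. All 12 microglial marker genes examined had a peak in both lists, and of 13 neuroblastoma or neuronal markers only Tubb3 did. A peak shows that a transcript was captured and is no measure of its level. Mettl3 RNA itself had peaks in both lists, so these lists do not check the knockout.

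Deubiquitinases are proteases that cut ubiquitin off proteins or trim ubiquitin chains, and so oppose the ubiquitin ligases. After LPS binds Toll-like receptor 4, chains linked through lysine 63 or head to tail (linear chains) assemble the complexes that activate NF-kB. Cyld, Otulin and the A20 protein cut such chains and limit the response, while other deubiquitinases serve the proteasome, chromatin, DNA repair and membrane traffic. m6A is commonly placed in the RRACH context, often near stop codons and in 3′ UTRs, and can alter the stability, splicing and translation of a transcript.

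The symbols are not a perfect guide to enzyme activity. The gene ontology terms in the deposited lists give protein deubiquitination to 58 of the 63 genes. The 5 without it are Otud7a, Otulin, Otulinl, Usp6nl and Usp46os1. Otulin and Otud7a are deubiquitinases nonetheless. Usp6nl encodes a GTPase-activating protein for Rab5 and Otulinl a relative of Otulin without its activity. Usp46os1 is a noncoding RNA. Conversely, 11 genes outside the rule carry the term, since other families of deubiquitinases have other names.

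Sequence could be set beside the peaks only at the 5′ ends, where the RefSeq promoter table of mouse assembly GRCm38.p6 holds the first 50 transcribed bases of 50 of the 63 genes. Of these, 13 had that whole window under a peak, judged by the outer ends of the peak with introns included. The 12 pentamers of the RRACH context, NNACN with a purine at both leading positions and any base but guanine at the last, were searched on the transcribed strand and on the other. Of these 13 genes, 3 held a match on the transcribed strand: Otud5, Usp37 and Otulinl. In Otulinl the whole window lay under a peak in KO only, although the WT peak covers the pentamer. The first 2 are shown because their windows lay wholly between the outer ends of a peak in both lists. The capitals mark the pentamer, and both are written 5′ to 3′ on the transcribed strand.
Otud5, chrX:7841835-7841864, plus strand: agccgaatcccgGAACCaggtagcagagag
Usp37, chr1:74505772-74505801, minus strand: gtttaggtgtgctaggagagAGACCggcct
The Otud5 pentamer starts at base 17 of the transcript as RefSeq gives it, and the Usp37 pentamer at base 41. The 5′ UTR peak over the Otud5 sequence spans 742 bases and had the same coordinates in both lists, at 1.44 in WT and 0.90 in KO. The peak over the Usp37 sequence spans 44168 bases in WT and 44218 in KO, introns included, and was level at 1.30 and 1.28. The Usp37 bases may therefore lie in an intron that the peak skips. The RefSeq start site used for Usp37 lies within the annotated gene, whose 5′ end is at chr1:74544284. A match is a description and not a mapped site. Of all 32851 such windows 44.6% hold one of the pentamers on the transcribed strand and 44.9% on the other, and of the 67 windows of the deubiquitinase genes 32.8% and 34.3%.

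In most of these genes the strongest peak had a lower value in the KO list than in the WT list. The level was lower in 49 of the 61 deubiquitinase genes that had a peak in each list and higher in 12, or 80.3% lower beside 73.4% of all 12323 genes of that kind. The median level was 1.69 in WT and 1.28 in KO, against 1.34 and 1.08 over all genes. The median difference was -0.44, with quartiles at -0.71 and -0.05, against -0.25 over all genes. The strongest peak of a deubiquitinase gene was thus typically stronger than that of genes at large, but their peaks taken singly were not: the median log2 over peaks was 0.78 in WT beside 0.83 for all peaks, and 0.71 in KO beside 0.70. The genes had more peaks each, 3.92 in WT and 4.02 in KO beside 2.74 and 3.15, and the part of that in the strongest-peak values was not tested. Fewer methylated copies of a transcript and a less efficient pull-down in the KO libraries cannot be told apart in these values.

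By gene, strong enrichment was more frequent than over all genes. At least 4-fold enrichment was reached in WT by 26 of the 61 genes (42.6%), beside 27.2% of all genes. In KO it was reached by 14 genes (23.0%), beside 11.4%. By peak, in WT it was as frequent as over all peaks: 28 of the 239 WT peaks (11.7%) reached 4-fold, beside 11.7% of all WT peaks, and 14 of the 253 KO peaks (5.53%), beside 3.93%. Large differences were not frequent. Only Usp20, Usp10, Usp1 and Usp47 were lower by 1 or more, or 6.56% beside 9.54% of all genes. No gene was higher by 1 or more, beside 0.714% of all genes. Otulin at -0.997 and Otud1 at -0.95 lay just short of that size.

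The size of the difference followed the WT level, as it did over all genes. Among genes of at least 4-fold enrichment in WT, the median difference was -0.75 for the 26 deubiquitinase genes and -0.83 for all 3351 genes. Within that class 4 of 26 (15.4%) were lower by 1 or more, beside 32.9% of all genes. Among genes with a WT log2 of 1 to 2 the medians were -0.34 for 23 members and -0.30 for all. Below a WT log2 of 1 they were 0.07 for 12 members and 0.03 for all. Picking genes by their WT level favours high WT values in itself, so these classes are a description and the part of that choice in the differences was not tested.

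**Figure D1:**
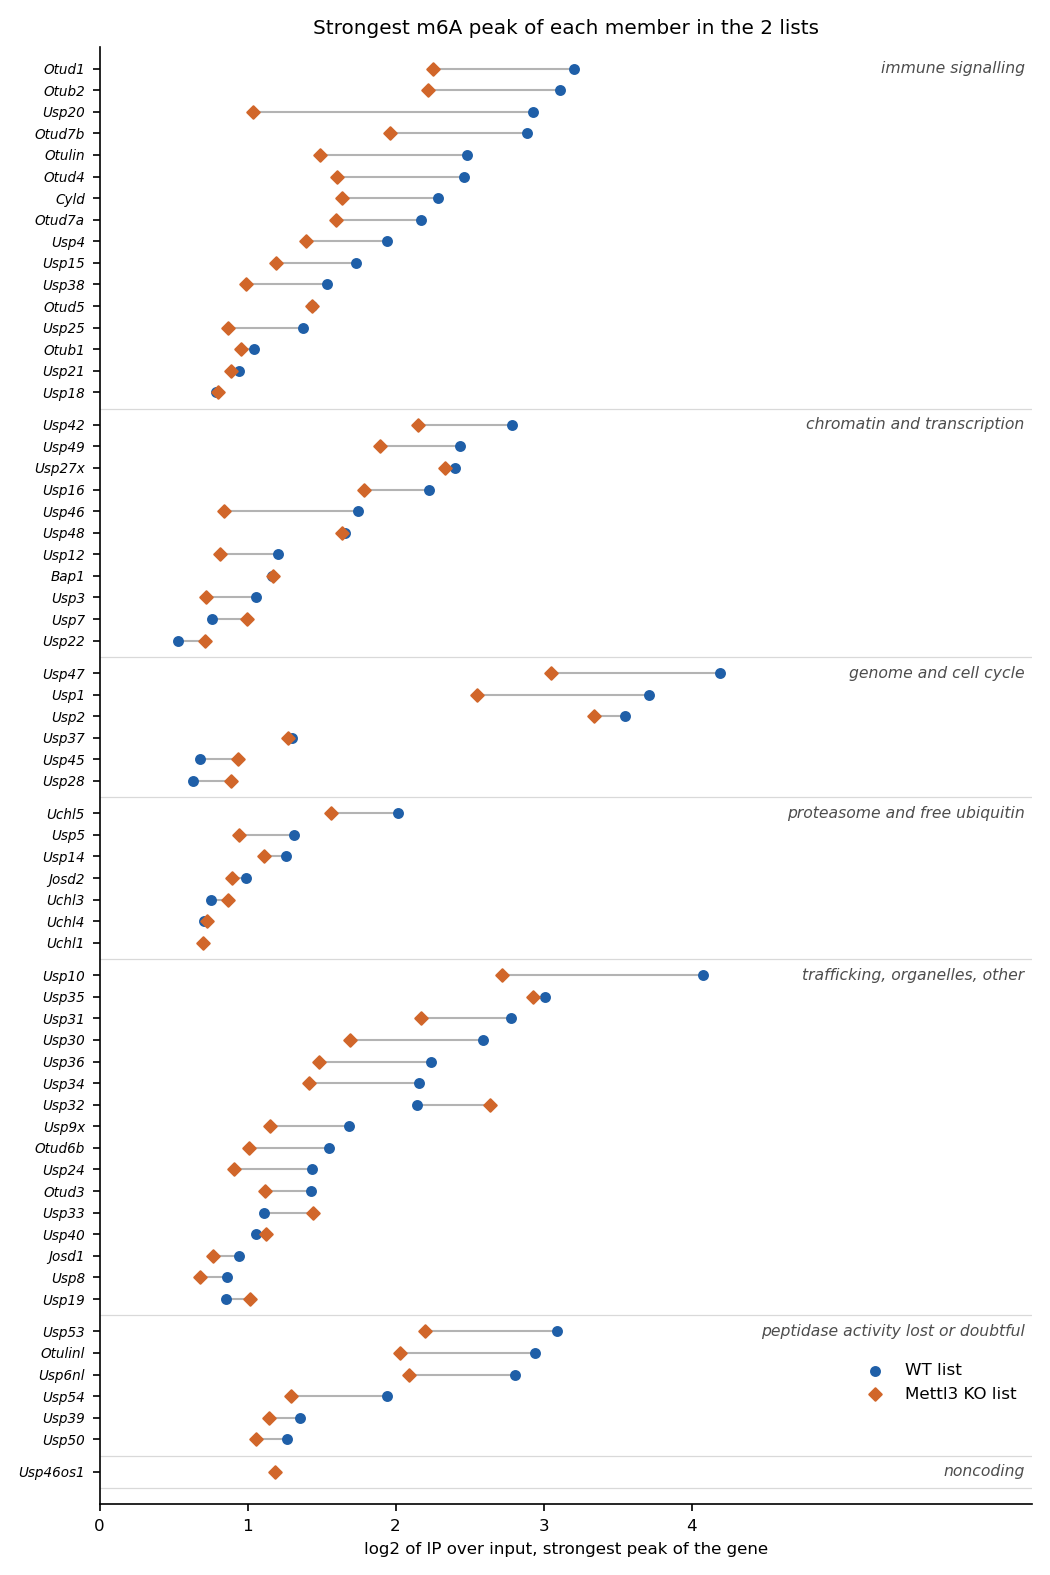
Strongest m6A peak of each deubiquitinase gene in the WT list (circles) and the Mettl3 KO list (diamonds), as the deposited log2 of IP over input on the horizontal axis, with genes grouped by role and ordered by WT value. Most diamonds lie to the left of their circle; Usp32, Usp33 and Usp7 are among the 12 genes with the reverse order, and Uchl1 and Usp46os1 have a KO value only.

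**Figure D2:**
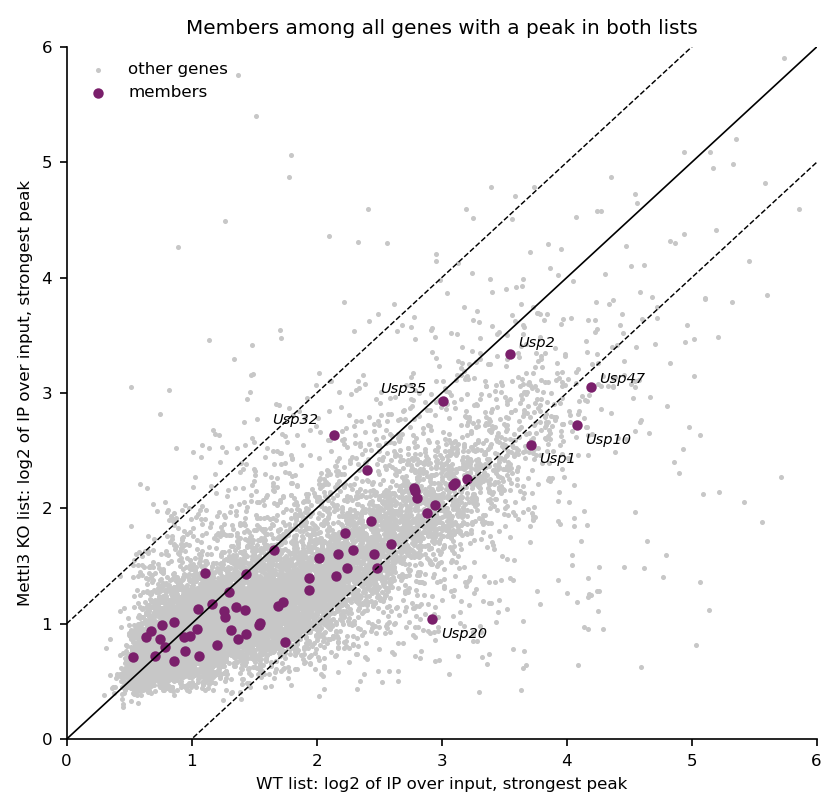
KO log2 against WT log2 of the strongest peak for every gene found in both lists (grey) and for the 61 deubiquitinase genes (coloured), with a solid line of equal values and dashed lines at a difference of 1 either way; 12 genes of the whole lists lie outside the axes. The coloured points lie within the grey cloud, and 49 of the 61 fall below the line.

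The OTU family, which holds several of the deubiquitinases of linear and lysine 63 chain signalling, was lower in the KO list in 11 of 11 genes, beside 73.4% of all genes and 93.8% of those with a WT log2 of 2 or more. Its median difference was -0.86, from -0.997 for Otulin to -0.004 for Otud5. At least 4-fold enrichment was reached by 7 of the 11 in WT and by 3 in KO, beside 27.2% and 11.4% of all genes. The Usp genes were lower in 34 of 43 (79.1%), beside 73.4% of all genes, with a median of -0.39. Of the 4 ubiquitin C-terminal hydrolase genes with a peak in both lists 1 was lower, with a median of 0.01. These families differ in their WT levels as well, with medians of 2.46, 1.69 and 0.96 in the same order.

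Otulin, the deubiquitinase that cuts linear chains only, had 1 peak in each list, at log2 2.48 in WT and 1.49 in KO. Both peaks start at chr15:27542660 on the minus strand, are annotated to the 3′ UTR and span 73748 and 73723 bases, introns included. The outer ends of the peak were thus nearly the same in both lists. Which bases between them each peak covers was not compared. Its catalytically inactive neighbour and relative Otulinl was at 2.94 and 2.03.

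Otud1, an OTU enzyme that prefers lysine 63 chains, had the strongest peak of the family, at 3.21 in WT and 2.26 in KO. Its 3′ UTR peak (chr2:19658227-19659826) spanned 1600 bases in WT and 925 in KO. A further Otud1 peak in the 5′ UTR, at 1.67, was in the WT list only. The difference of -0.95 therefore sets peaks of unequal length beside each other, and among peaks of at most 1000 bases Otud1 was higher in KO, by 0.59.

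Otub2, a small OTU enzyme, was at 3.11 in WT and 2.22 in KO. Its relative Otub1, which also blocks the ubiquitin-conjugating enzyme UBC13 by binding it, had much weaker peaks, at 1.05 and 0.95. The pair had 2 and 1 peaks per list. Otud7b, known as Cezanne and a cutter of lysine 11 chains, was at 2.88 in WT and 1.96 in KO. Its relative Otud7a was at 2.17 and 1.60 in its only peak, an intronic stretch of 246 bases with the same coordinates in both lists. Otud4, which acts on the adaptor MyD88, was at 2.46 and 1.60.

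Otud5, known as DUBA, removes chains from TRAF3 and restrains type I interferon. Its strongest peaks were almost equal, at 1.44 in WT and 1.43 in KO, but they lay at opposite ends of the transcript. The WT value is that of the 5′ UTR peak over the printed sequence, which was 0.90 in KO. The KO value is that of a 3′ UTR peak at the gene end (chrX:7876227-7876626), at whose place the WT list had 0.78. The near-zero difference of Otud5 thus hides a lower value at the 5′ end and a higher one at the 3′ end. Outside the signalling group, Otud6b was at 1.55 and 1.01 and Otud3 at 1.43 and 1.12.

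Cyld, the tumour suppressor that cuts lysine 63 and linear chains in NF-kB signalling, was at 2.29 in WT and 1.64 in KO in a 5′ UTR peak. That peak (chr8:88702333-88716179, plus strand, spanning 13847 bases with introns) had the same coordinates in both lists. Cyld had 7 peaks in WT and 6 in KO, and the mean over them was nearly the same, at 0.92 and 0.91. The lower value was thus a feature of its strongest peak and not of its peaks on average. Its WT 3′ UTR peaks, at 0.52 to 0.74, each overlapped a KO peak of higher value, at 0.65 to 0.93.

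The 16 genes grouped as immune signalling had a median difference of -0.56, beside -0.25 over all genes. Of the 16, 15 were lower, beside 73.4% of all genes and 93.8% of those with a WT log2 of 2 or more. The group holds OTU genes already counted above, and roles were assigned with earlier results of these data known. In WT 8 of the 16 reached 4-fold enrichment, beside 27.2% of all genes, and in KO 2 did, Otud1 and Otub2, beside 11.4%. Usp20, which acts on the adrenergic receptor and on TRAF6, had the most negative difference of all, at 2.93 in WT and 1.04 in KO. The WT value belongs to a 5′ UTR peak (chr2:30983854-30995698) that spans 11845 bases and had no overlapping peak in KO. The KO value belongs to a 3′ UTR peak of 100 bases. Of the 5 WT and 3 KO peaks of Usp20, the longest 3′ UTR peak of the KO list was at 0.87, and the WT peaks it overlaps were at 0.60 and 0.73. Its difference of -1.89 therefore rests on 1 peak that the KO list lacks.

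The paralogues Usp4 and Usp15, which act in TGF-beta receptor signalling among other pathways, had similar values. Usp4 was at 1.94 in WT and 1.40 in KO. Usp15 was at 1.73 and 1.19 in 3′ UTR peaks that started at the same base. Usp15 had 4 peaks in WT and 9 in KO, and the 5 KO peaks without a WT partner had log2 values of 0.46 to 0.72. Usp25, which stabilises TRAF proteins, was at 1.37 and 0.87, and Usp38 at 1.54 and 0.99. Usp21 was almost level at 0.94 and 0.89.

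Usp18, which removes the ubiquitin-like protein ISG15 and restrains interferon receptor signalling, was among the more weakly enriched genes. Its level was 0.79 in WT and 0.80 in KO. At the gene end (chr6:121270703-121270917 in WT) a 3′ UTR peak was at 0.79 in WT and 0.75 in KO. The list of Usp18 peaks was longer in KO, 6 against 2, and none of the 6 reached 2-fold enrichment. Usp18 is strongly induced by interferon, and the amount of its RNA, which bears on how many peaks can be called, was not analysed here.

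Among the 11 genes grouped as chromatin and transcription, 8 were lower (72.7%), beside 73.4% of all genes. The median difference of the group was -0.34, beside -0.25 over all genes. The strongest were Usp42 at 2.78 in WT and 2.15 in KO, Usp49, a deubiquitinase of histone H2B, at 2.44 and 1.89, and Usp27x at 2.40 and 2.34. Usp46, which works with the partner Wdr48, had the most negative difference of the group, at 1.74 and 0.84, while its paralogue Usp12 was at 1.20 and 0.81. Bap1, the nuclear tumour suppressor that removes ubiquitin from histone H2A, was level at 1.16 and 1.17, in 3′ UTR peaks of 300 and 325 bases near the gene end.

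The genes of this group with a higher KO value were Bap1, Usp7 and Usp22. Usp7, which stabilises MDM2 and p53, was at 0.76 in WT and 0.99 in KO. Usp22, the deubiquitinase of the SAGA complex, was at 0.53 and 0.71. Both had weak WT peaks, and the 2 KO values stayed below 2-fold enrichment. Usp48 was level at 1.66 and 1.64. Usp16 and Usp3, both of them H2A deubiquitinases, were at 2.23 and 1.79 and at 1.06 and 0.72.

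The strongest peaks of all belonged to Usp47 and Usp10. Usp47, linked to base excision repair, was at 4.19 in WT and 3.05 in KO in a peak annotated as exonic (chr7:112092553-112093677, plus strand, 1125 bases). Usp10, which deubiquitinates p53 and binds the stress granule protein G3BP1, was at 4.08 and 2.72 in an exonic peak of 5492 bases (chr8:119940930-119946421, plus strand). Both peaks had the same coordinates in the lists. A further Usp10 peak with the same coordinates in both, 6006 bases long, was at 1.87 and 1.30.

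Usp1, which with Wdr48 removes ubiquitin from the DNA repair proteins FANCD2 and PCNA, had 1 peak in each list, at 3.71 in WT and 2.55 in KO. It covers 4598 bases at the 3′ end (chr4:98930938-98935535, plus strand) with the same coordinates in both. Usp1, Usp10 and Usp47 are thus the 3 genes in which a peak with identical coordinates in both lists was lower by more than 1. In KO they still had 5.87-, 6.59- and 8.29-fold enrichment, above the 4-fold reached by 11.4% of all genes.

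Usp2, a deubiquitinase of cyclin D1 and of clock proteins, differed from these 3. It was at 3.55 in WT and 3.34 in KO, the highest KO value of the set, in 5′ UTR peaks. The WT peak spans 12859 bases, and the KO list had 2 peaks over the same stretch, the first at 3.34 and the next at 1.29. Usp37, a cell cycle deubiquitinase, was level as given above. Usp28 was at 0.63 and 0.89 and Usp45 at 0.68 and 0.93, in each case in peaks that do not overlap. At the place of the strongest WT peak the KO list had 0.57 for Usp28 and 0.77 for Usp45, so only Usp45 was higher in KO there too. At the place of the strongest KO peak the WT list had 0.52 for Usp28 and 0.56 for Usp45, so both were higher in KO there. The 6 genes of genome maintenance and the cell cycle had a median difference of -0.11, beside -0.25 over all genes. Of these 6, 4 were lower (66.7%), beside 73.4% of all genes.

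Proteins of the proteasome and of free ubiquitin turnover showed weaker peaks. Uchl5, which sits on the proteasome, was at 2.02 in WT and 1.57 in KO, in intronic peaks that do not overlap. Where the WT peak lies (chr1:143777642-143778741) the KO list had 1.09. Where the KO peak lies the WT list had 1.19, so Uchl5 was lower in KO at the first place and higher at the other. Usp14, the other deubiquitinase of the proteasome, was at 1.26 and 1.11. Usp5, which takes apart free chains, was at 1.31 and 0.94 in a 3′ UTR peak of 1999 bases with the same coordinates in both. Josd2 was at 0.99 and 0.90, and its relative Josd1 at 0.94 and 0.76.

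Uchl3, a small hydrolase of ubiquitin and NEDD8 precursors, was at 0.75 in WT and 0.87 in KO in a 3′ UTR peak. Uchl4 was at 0.71 and 0.72. Uchl4 is a close copy of Uchl3, so reads of the pair may not be told apart and both values are uncertain. Uchl1, abundant in neurons, had a peak in KO only. It is a 3′ UTR peak of 200 bases at 0.70 with a deposited adjusted p of 2.28e-11.

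No deubiquitinase gene had a peak in the WT list only, beside 7.44% of all genes. The 2 with a peak in the KO list only, Uchl1 and Usp46os1, stand beside 5.03% of all genes. Usp46os1, a noncoding RNA read from the strand opposite Usp46, had 1 exonic peak at 1.19 with a deposited adjusted p of 0.000453. The protocol marks strand, but the sources used here do not say whether the counting used strand, so reads of Usp46 cannot be kept apart from it with certainty. The KO list also had a Usp46 peak of 20533 bases over that stretch, at 0.55, which had no WT partner.

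The 16 genes of membrane traffic, organelles and other functions had a median difference of -0.42, beside -0.25 over all genes. In this group 12 were lower (75%), beside 73.4% of all genes. Usp10, described above, led them. Usp35 was level and strong, at 3.01 in WT and 2.93 in KO. Usp30, which sits on mitochondria and opposes mitophagy, was at 2.59 and 1.69, and where its WT peak lies (chr5:114121732-114123681) the KO list had 1.43. Its second 3′ UTR peak, nearer the gene end, went the other way, from 1.29 to 1.69. Usp36, a nucleolar enzyme, was at 2.24 and 1.48, and Usp31 at 2.78 and 2.17.

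Several genes of this group had many peaks. Usp34, which acts on axin in Wnt signalling, had 10 peaks in WT and 11 in KO, the strongest at 2.16 and 1.42. Usp9x, a large enzyme of the X chromosome, had 10 and 8, the strongest at 1.69 and 1.15. Usp24 had 7 and 6, the strongest at 1.43 and 0.91, and Usp40 had 9 and 8, the strongest at 1.05 and 1.13. In these genes most peaks were weak, with mean log2 values of 0.71 to 0.84 in WT and 0.61 to 0.78 in KO.

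Usp32 had the most positive difference, at 2.14 in WT and 2.64 in KO. Here too the 5′ UTR peak had the same coordinates in both lists, spanning 36184 bases with introns (chr11:85103714-85139897, minus strand). Its 3′ UTR peak of 8320 bases went the other way, at 1.38 in WT and 0.89 in KO. The paralogues Usp20 and Usp33, both known to act on the beta-adrenergic receptor, went opposite ways in their strongest peaks. Usp33 was at 1.11 and 1.44, and at the place of its strongest WT peak the KO list had 1.03. At the place of its strongest KO peak the WT list had 0.59, so its order depends on the place. Usp19, an enzyme of the endoplasmic reticulum, was at 0.86 and 1.02, and the endosomal Usp8 at 0.86 and 0.68.

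The 6 genes whose peptidase activity is lost or doubtful were lower in 6 of 6, beside 73.4% of all genes. Their median difference was -0.68, beside -0.25 over all genes. Of the 6, 3 had a WT log2 of 2 or more, where 93.8% of all genes were lower. Usp53, a protein of cell junctions, was at 3.09 in WT and 2.20 in KO. Usp6nl was at 2.80 and 2.09, Usp54 at 1.94 and 1.29, and the splicing protein Usp39 at 1.36 and 1.14. Usp50 was at 1.27 and 1.06. Lower KO values were thus also found in genes of lost or doubtful activity, as in most genes at large.

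The annotated regions of the peaks were close to those of peaks at large, whereas a slightly smaller share of the WT peaks ended near the gene end. By the deposited annotation 57.3% of the WT peaks were in the 3′ UTR (95% Wilson interval 51.0 to 63.4), beside 53.0% of all WT peaks, and 55.3% of the KO peaks (49.2 to 61.3), beside 51.4%. Exonic peaks made up 24.7% in WT and 29.2% in KO, beside 21.1% and 25.1%. The 5′ UTR held 11.3% and 11.1%, beside 11.9% in each list. Peaks that end within 250 bases of the gene end made up 20.5% in WT (15.9 to 26.1), beside 26.1% of all WT peaks, which lies just above the interval, and 20.9% in KO (16.4 to 26.4), beside 23.4%. The intervals cover counting of peaks only. A gene has 1 end, and these genes had more WT peaks each, 3.92 beside 2.74, which lowers a share per peak. The lower share therefore does not show that fewer of these genes had a peak at their end. The strongest peak of a gene was in the 3′ UTR in 41 of the 61 genes in each list and in the 5′ UTR in 10.

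The 5′ UTR peaks of these genes were the strongest class in WT, with a median log2 of 1.30 against 0.81 in the 3′ UTR and 0.60 in exons. In KO the 5′ UTR and 3′ UTR medians were level at 0.80 each, with 0.53 in exons. The few intronic peaks had medians of 0.79 in WT (16 peaks) and 0.98 in KO (10 peaks), the latter above the UTR medians. Over all genes the 5′ UTR and 3′ UTR medians were 0.95 and 0.86 in WT and 0.76 in KO for both. The genes are long, with a median annotated span of 44693 bases beside 18225 for all genes.

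**Figure D3:**
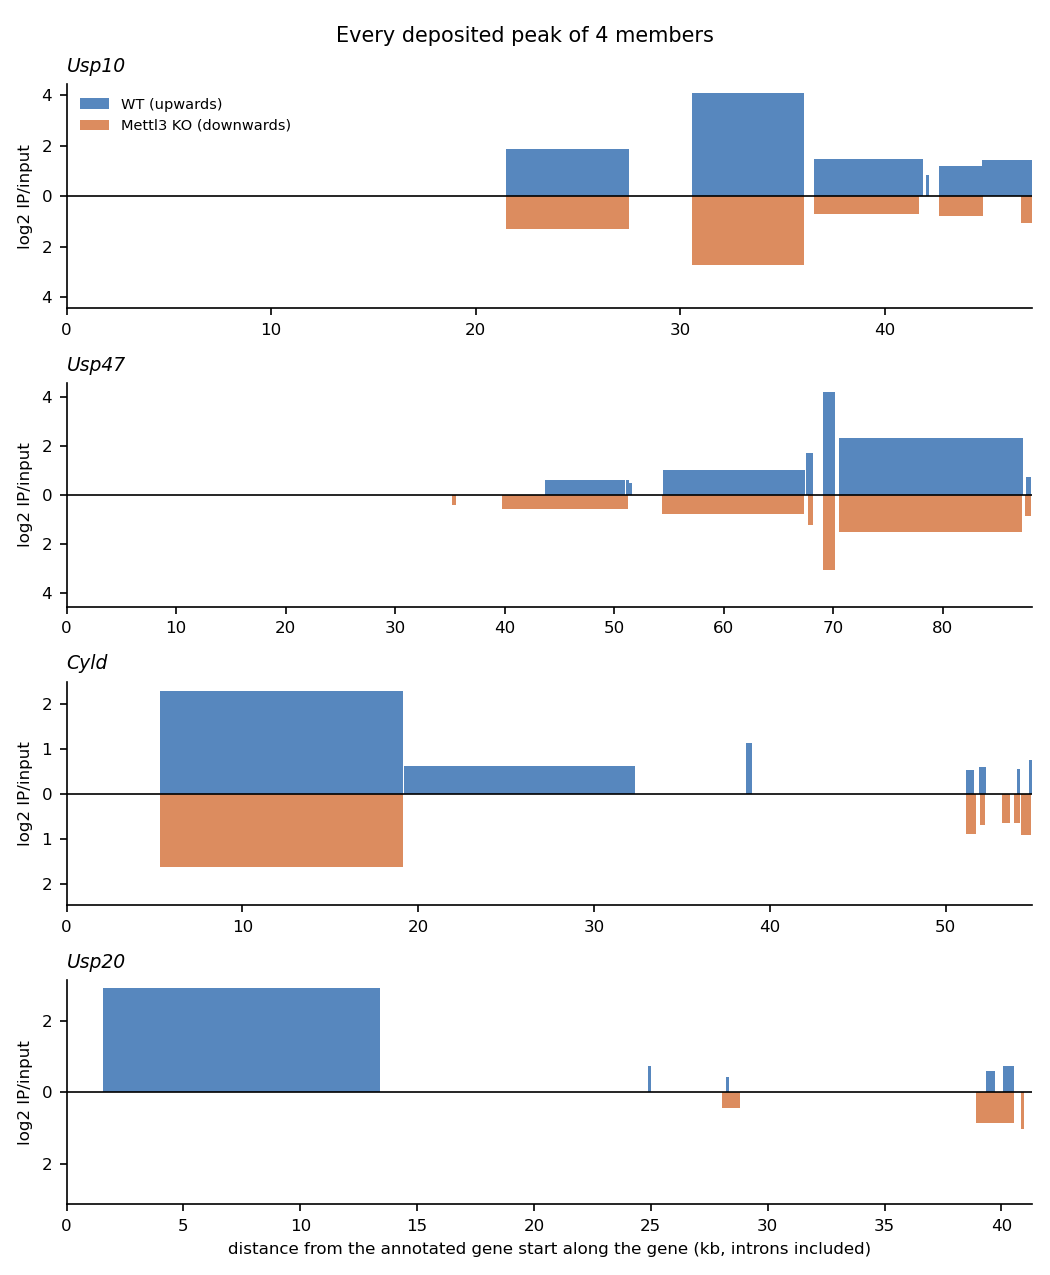
Every peak of Usp10, Usp47, Cyld and Usp20 against the distance from the annotated gene start in kilobases, introns included; bars upwards are WT and bars downwards KO, bar height is the deposited log2 of IP over input, and the narrowest bars are widened to stay visible. Usp20 shows the WT 5′ UTR peak with no KO partner, and Usp10 and Usp47 show strong peaks at the same place in both lists.

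Because the strongest peak can lie at different places in the lists, values were also compared at the same place. The strongest WT and KO peaks of a gene shared a base in 47 of the 61 genes (77.0%), beside 74.3% of all genes. Where the KO list had a peak over the strongest WT peak, in 57 genes, the KO value was lower in 50, beside 78.1% of all genes, and the median difference was -0.52, beside -0.31 over all genes. Of these 57, 4 were lower by 1 or more, beside 9.86% of all genes; they were Usp10, Usp30, Usp1 and Usp47.

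That comparison starts from the WT peak and so favours high WT values. In the reverse comparison, which starts from the strongest KO peak and was added after the data were seen, 44 of 57 genes were lower, beside 67.5% of all genes, with a median of -0.39 beside -0.18 over all genes. Here 3 genes were lower by 1 or more, Usp1, Usp10 and Usp47, beside 8.27% of all genes. A comparison that favours neither list used the 18 peaks, in 17 genes, that had the same coordinates in both, also added after the data were seen. Of these 16 were lower in KO, beside 61.9% of all 2916 such peaks, and the exceptions were the Usp32 peak and a 3′ UTR peak of Usp48 at 0.57 and 0.61. Their median difference was -0.38, beside -0.06 over all such peaks. Among the 11 with a mean log2 of at least 1 it was -0.57, beside -0.22 for all peaks of that strength.

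Length of the peaks moved with the difference. In the 33 genes whose strongest peaks in both lists spanned more than 1000 bases, 32 were lower, with a median of -0.61, beside 87.3% and -0.55 for all genes of that kind. In the 20 genes whose strongest peaks both spanned at most 1000 bases, 11 were lower, with a median of -0.03, beside 60.3% and -0.07. When only peaks of at most 1000 bases were used, 29 of 55 genes were lower and the median was -0.01, beside 58.2% and -0.05 over all genes. Peaks over 1000 bases were the stronger in WT, with a median log2 of 1.12 against 0.71 for shorter ones. In KO they were not, with 0.67 against 0.71. The part of length, apart from strength, in the differences was not tested.

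Over the 6 settings compared (strongest peak, mean over peaks, short peaks, peaks with an adjusted p of at most 0.001, and the same place from either list), 29 genes were lower in every setting that gave a value. Among them were Cyld, Otulin, Otub1, Otub2, Otud3, Otud4, Otud7a, Otud7b, Usp1, Usp6nl, Usp47 and Usp54. Otub1, Otud7a, Otulin and Usp1 had 1 peak in each list, so every setting repeats the same pair of values. For Cyld the mean over peaks differed by only -0.008, and its strongest short peaks lie at different places in the lists. A further 7 genes were higher in every such setting: Uchl3, Uchl4, Usp7, Usp22, Usp32, Usp40 and Usp45. Uchl3 and Uchl4 also had 1 peak in each list, so their order could not change. The other 25 changed order with the setting, among them Usp10 and Usp20. Of the 48 genes with a value in all 6, 24 were lower in every one. These counts over settings were not made for all genes, so how they stand beside genes at large is unknown. When differences were centred on the median of all genes, 35 of 61 were below that median.

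**Figure D4:**
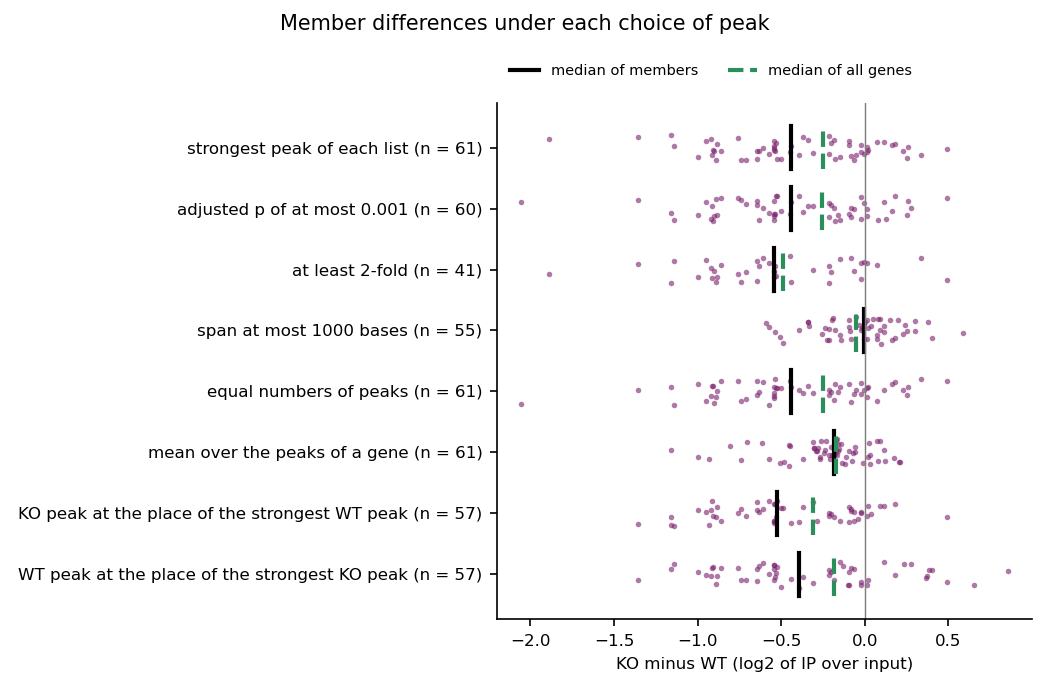
KO minus WT difference of the deubiquitinase genes under each way of giving a gene its value, with each point a gene, the median of the genes marked, and the median of all genes marked beside it. The median of the deubiquitinase genes is -0.44 for the strongest peak, -0.19 for the mean over peaks and -0.01 for peaks of at most 1000 bases.

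Other genes of the ubiquitin system were examined beside these. All 24 genes of deubiquitinase families with other names had a peak in both lists. The median was -0.21 and 17 were lower (70.8%), beside -0.25 and 73.4% over all genes. The 24 include family members without protease activity (Cops6, Psmd7, Eif3h and Prpf8) and Uspl1, which acts on SUMO. The strongest were Vcpip1 at 3.22 in WT and 2.23 in KO, Tnfaip3, which encodes A20, at 3.21 and 2.41, and Yod1 at 3.06 and 2.32. Zranb1, named after its value was seen, was the only one lower by 1 or more, at 2.84 and 1.79.

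Of 17 binding partners of the deubiquitinases, 16 had a peak in both lists. Of the 16, 15 were lower with a median of -0.50, beside 73.4% and -0.25 over all genes. Wdr20, an activator of Usp12 and Usp46, was at 4.01 and 3.12. Atxn7l3, which activates Usp22, was at 3.42 and 2.21, whereas Usp22 itself was at 0.53 and 0.71. Asxl1, the partner of Bap1, was at 2.79 and 2.00, whereas Bap1 was level. Foxk2, another partner of Bap1 and named after its value was seen, was at 2.74 and 1.63.

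The 14 genes of linear and lysine 63 chain assembly had a median of -0.42, with 13 lower, beside -0.25 and 73.4% over all genes. The strongest were the chain-binding adaptor Tab2, at 3.26 in WT and 3.13 in KO, the ligase Traf6, at 3.03 and 1.98, and Traf3, at 2.35 and 1.43. The linear chain ligase genes Rnf31, Rbck1 and Sharpin had weak peaks, at 0.59 to 1.02 in WT, while Otulin, which opposes them, was at 2.48. Of the 6 genes of the ISG15 pathway 5 were lower, with a median of -0.57, beside 73.4% and -0.25 over all genes. The interferon receptor gene Ifnar2 was at 3.19 in WT and 2.36 in KO, Isg15 at 2.54 and 1.52 and Stat2, a transcription factor of interferon signalling, at 2.19 and 1.28. The ISG15 protease gene Usp18 was level.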

How the data were processed

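The values came from 2 deposited peak lists, 1 per genotype, which stand for 12 libraries. Per the file headers, the authors' table holds for every peak its position, gene and annotated region, the log2 of IP over input, and p-values before and after adjustment. The submitters' processing notes name HISAT2, StringTie, HOMER, edgeR, fastp and FastQC without versions or roles. The sources used here do not give the peak caller, the build or any pooling of replicates, and depth is unknown. Peak length was computed from the deposited positions and includes introns. Starts were counted from 0, since 5098 WT and 5186 KO peaks began at the gene start once 1 was added, and are printed from 1. The lists name no build; all 63 genes overlapped their RefSeq position in GRCm38.p6.

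Peaks of the same strand overlapped if they shared at least 1 base. Members, roles and gene lists were chosen with earlier results of these data known. The genes named are all UCH, OTU and Josephin genes, Cyld, Bap1, the Usp genes of signalling, genes with a peak in 1 list only, the 10 strongest WT peaks, differences of at least 1, the 10 genes with the most peaks and the 3 strongest genes of each other list; further members are named with their role. The result of 1 of the other lists, which was not lower in KO on balance, is not reported here for reasons apart from its values. Alternatives were stricter thresholds, short peaks, equal numbers of peaks, the mean over peaks, centring, the same place and 50% overlap. The steps were run on the WT list against a copy of itself with planted changes. There 200 of 200 shifted and 200 of 200 lost genes were recovered among 13370. Because the other peaks were the same on each side, this checks the code only and not how lists of unlike peaks are handled. The work used matplotlib 3.10.9, SciPy 1.17.1, numpy 2.4.6 and pandas 2.3.3 under Python 3.11.15.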

Additional observations from a re-analysis of the deposited data

How the results depend on the processing

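The lists hold no value per library, so leaving out a replicate and any test of the genotypes were not run. No paired analysis was possible because the replicate numbers of the labels belong to libraries, and the values used come from 1 list per genotype. The KO minus WT median of -0.44 was -0.54 for peaks of at least 2-fold, -0.0077 for spans of at most 1000 bases, -0.19 for the mean over peaks, -0.19 when centred and -0.52 at the place of the strongest WT peak. In the alternatives added after seeing the data it was -0.39 at the place of the strongest KO peak and -0.38 over pairs with the same coordinates. Genes lower by 1 or more numbered 4, but 1 for the mean over peaks, 2 when centred and 0 among short peaks, where 29 genes were lower in all and Usp10 (0.24) and Usp20 (0.30) reversed. The WT and KO median levels were 1.71 and 1.23 with adjusted p up to 0.001, 2.24 and 1.60 at 2-fold, and 0.93 and 0.91 for short peaks. At 2-fold 86 WT and 61 KO peaks remained and 8 genes had a WT peak only; among short peaks these were 137, 135 and 1. The share of peaks with a partner, 75.7% in WT and 72.3% in KO, was 54.4% and 51.4% at 50% overlap and 87.2% and 91.8% at 2-fold. At 2-fold, exonic, 5′ UTR and intronic peaks made up 17.4%, 17.4% and 3.49% in WT, and 3′ UTR, exonic and intronic peaks 67.2%, 11.5% and 8.20% in KO. The cause of these changes was not tested, apart from the fewer peaks and genes that stricter settings leave. The order of the lists turned in 14 of 61 genes when centred, 14 of 55 among short peaks, 6 of 61 for the mean and 2 of 60 at the stricter adjusted p. Equal numbers of peaks turned none of 61.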

Other observations

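The proteases of SUMO, a ubiquitin-like modifier, are relatives in function of the deubiquitinases. All 9 had a peak in both lists and 6 were lower in KO, beside 73.4% of all genes. The median difference was -0.06, beside -0.25 over all genes. The strongest were Senp3 at 2.77 in WT and 2.94 in KO, Senp8, which acts on NEDD8, at 2.21 and 1.44, and Senp5 at 2.06 and 2.26.

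RefSeq lists 17 further symbols that meet the rule and had no peak in either list. They include Usp11, the paralogue of Usp4 and Usp15, Usp13, the paralogue of Usp5, and the Usp17-like genes, a multigene family whose near-identical copies may not be told apart by reads. Usp26, Usp29, Usp43, Usp44, Usp51, Usp9y and Otud6a are the other protein-coding members of that set without such copies. A gene without a peak may lack m6A or may lack RNA in these cells, and these cannot be told apart here.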
